A study of Mus musculus with 9 samples.

Results

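The genes described here are the 4 tropomyosin genes of the mouse (Tpm1, Tpm2, Tpm3 and Tpm4) and its 4 alpha-actinin genes (Actn1, Actn2, Actn3 and Actn4), 8 of the 22071 genes that the array's annotation names. Their probe sets were those to which the annotation gives exactly 1 gene symbol, and that symbol had to be a member. This gave 183 probe sets, of which 154 passed a filter on weak signal and 29 did not. All cells were C2C12, an established mouse myoblast line kept in growth medium with serum, and all RNA was taken 48 h after transfection. The groups were cells given Cugbp1 siRNA, cells given Mbnl1 siRNA and cells given control siRNA, with 3 exon arrays each. Cugbp1 is the older name of Celf1, and each target protein binds RNA and regulates splicing. Each group is 1 siRNA treatment of the same line, and the labels do not say whether its replicates were separate cultures, so a p-value here reflects variation from array to array, and that variation may be technical.

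Tropomyosins are coiled-coil dimers that lie end to end along actin filaments, and they govern which other proteins, myosin included, can reach the filament. Tropomyosin genes can give several proteins through alternative promoters, mutually exclusive internal exons and alternative last exons, and muscle and non-muscle cells use different ones. The genes differ in this, and RefSeq lists 38 transcripts for Tpm1, 4 for Tpm2, 13 for Tpm3 and 1 for Tpm4. Alpha-actinins are antiparallel dimers that crosslink actin filaments. ACTN2 and ACTN3 do so at the Z-disc, the border of the sarcomere, while ACTN1 and ACTN4 are found at focal adhesions, stress fibres and the cell cortex. An exon array carries separate probe sets along a gene, so it gives a level for the gene and, for each probe set, how far that probe set stood above or below its gene.

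Celf1 was at 8.60, 8.60 and 8.81 on the Cugbp1 siRNA arrays, against 10.11, 10.14 and 10.14 on the control arrays (log2 intensity of the gene value). Mbnl1 was at 10.05, 10.10 and 10.18 on the Mbnl1 siRNA arrays, against 11.47, 11.46 and 11.44 on the control arrays. Both targets were thus low on every array labelled for them. Over the list of 7 myoblast markers, 91.2% of probe sets passed the filter. All those of Myod1, Myf5, Des and Chrna1 did. For Cdh15 15 of 16 passed, for Mymk 4 of 7 and for Myog 2 of 4, too few to test Myog. The share was 26.5% for 6 markers of differentiated muscle, 57.4% for 4 of smooth muscle and 20.4% for 4 of blood cells. It was 8.45% for 3 of endothelium and 43.8% for 4 of epithelium. Single genes varied within these lists: 16.7% to 75% for differentiated muscle, 32% to 96.3% for smooth muscle and 9.43% to 100% for blood cells. For endothelium they ran from 2.86% to 14.3%, and for epithelium from 18.2% to 81.25%. For comparison, 168803 of all 316997 probe sets named for a gene passed the filter. Median intensities were 42.3 to 42.9 on the 6 siRNA arrays and 43.6 to 43.8 on the control arrays. With 3 arrays a group, precision is set by their number.

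Of the 3 members that passed the test at gene level in any comparison (Tpm2, Actn2 and Actn3), the promoters of Tpm2 and Actn2 are given first, since the overall level of these genes differed between groups; Actn3 has no window here. Sequences are from RefSeq (GRCm38.p6), cover the 250 bases upstream of the annotated start and are written 5′ to 3′ on the gene's strand. Capitals mark E-boxes, the letters CANNTG searched on both strands (the motif is its own reverse complement), the kind of element that muscle transcription factors such as MYOD1 bind. Tpm2 (chr4:43523555-43523804, minus strand) and Actn2 (chr13:12340733-12340982, minus strand) read as follows.
Tpm2: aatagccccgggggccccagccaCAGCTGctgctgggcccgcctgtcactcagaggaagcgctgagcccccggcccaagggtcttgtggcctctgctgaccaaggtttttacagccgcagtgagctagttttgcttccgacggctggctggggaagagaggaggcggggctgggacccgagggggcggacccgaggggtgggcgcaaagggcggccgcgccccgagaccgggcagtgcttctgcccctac
Actn2: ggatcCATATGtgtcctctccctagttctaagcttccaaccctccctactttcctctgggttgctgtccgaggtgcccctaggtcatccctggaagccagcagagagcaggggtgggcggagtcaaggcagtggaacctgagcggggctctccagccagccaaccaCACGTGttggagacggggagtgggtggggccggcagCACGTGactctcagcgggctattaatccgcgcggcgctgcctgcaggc
The Tpm2 window held 1 E-box and the Actn2 window 3. Of 32851 promoter windows of this length, 66.2% held at least 1 and 12.2% at least 3. A match is a run of letters and not evidence of binding. The search left the middle letters free, so no match is assigned to MYOD1 or to any other factor. Of the 8 members, 7 had a window in the table.

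At gene level, the muscle Z-disc gene Actn2 was lower after either siRNA, and Tpm2 and Actn3 were higher by a little after Mbnl1 siRNA, while the other 5 members passed the test in neither comparison with control. All 8 genes could be tested. After Cugbp1 siRNA 1 of 8 members was called (limma with Benjamini-Hochberg adjustment over all 12646 genes, adjusted p under 0.05), where 38.7% of all genes were. After Mbnl1 siRNA 3 of 8 were, where 41.5% of all genes were. Between the siRNAs 0 of 8 were called by limma, where 9.34% of all genes were. At an unadjusted p under 0.05 there was 1, Tpm2, and at least 9.34% of all genes are under that value. The shares of members called are near or below the background. A call among the members is therefore described here for the gene itself and not as a property of the families. Separate groups were common over all genes: 48.8% had no overlap after Cugbp1 siRNA, 57.5% after Mbnl1 siRNA and 29.5% between the siRNAs. A member whose groups lie apart is not unusual for that. Both comparisons with control use the same 3 control arrays. In RNA from whole cultures, fewer cells with a transcript and less of it per cell cannot be told apart.

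Small gene-level differences depended on how the arrays were scaled. As deposited, the median change over all genes was 0.05 after Cugbp1 siRNA and 0.04 after Mbnl1 siRNA, with 3293 genes called higher and 1600 lower, and 3397 higher and 1848 lower. With each array centred on its median over the named probe sets that passed the filter, an alternative chosen after seeing the data, the medians were -0.04 and -0.06, with 1366 genes called higher and 3206 lower, and 1716 higher and 3918 lower. With each array centred over all probe sets instead, the counts were 4398 higher and 1230 lower, and 4232 higher and 1433 lower. Under the first of these scalings Actn2 still fell after both siRNAs (-0.53 and -0.44), but Tpm2 (0.05; limma, adjusted p = 0.310) and Actn3 (0.06; adjusted p = 0.434) no longer passed after Mbnl1 siRNA, and Tpm4 and Actn4 passed as lower after both. Values of a probe set against its own gene are taken within an array and hardly moved: 5 and 19 probe sets were called.

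Among the tropomyosins, Tpm2, which encodes the beta-tropomyosin of muscle, was at 9.63, 9.62 and 9.68 after Cugbp1 siRNA and 9.84, 9.77 and 9.79 after Mbnl1 siRNA, against 9.69, 9.62 and 9.58 in control cells (log2 intensity). All 3 Mbnl1 siRNA arrays lay above all 6 others, and the Cugbp1 siRNA arrays lay within the range of the controls. Tpm2 rose 12.4% after Mbnl1 siRNA (95% interval 4.96% to 20.4%; log2 difference 0.17, SE 0.04; limma, adjusted p = 0.0130). After Cugbp1 siRNA the difference was 0.02 (adjusted p = 0.780), and the direct difference of Cugbp1 siRNA minus Mbnl1 siRNA was -0.15 (adjusted p = 0.0612). With the mean of the probe sets as gene value, the rise of Tpm2 after Mbnl1 siRNA was 0.26 (adjusted p = 0.00255). Of its 16 probe sets, 14 were higher after Mbnl1 siRNA and 10 after Cugbp1 siRNA. Tpm2 overlaps Car9 in RefSeq.

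Tpm1, the alpha-tropomyosin gene, was at 10.15, 10.31 and 10.34 after Cugbp1 siRNA, 10.32, 10.29 and 10.41 after Mbnl1 siRNA and 10.29, 10.19 and 10.24 in control cells. The 3 groups overlapped. Its gene value differed from control by 0.02 after Cugbp1 siRNA (95% interval -0.11 to 0.16; limma, adjusted p = 0.756) and by 0.10 after Mbnl1 siRNA (-0.03 to 0.23; adjusted p = 0.203). Tpm1 is nevertheless the member with the most probe sets that left their gene after Mbnl1 siRNA.

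Tpm3 is expressed in slow muscle and, as other isoforms, in most cells. Its gene value was 10.27, 10.20 and 10.20 after Cugbp1 siRNA, 10.19, 10.24 and 10.20 after Mbnl1 siRNA and 10.19, 10.20 and 10.15 in control cells. The groups overlapped, and the differences from control were 0.04 (95% interval -0.05 to 0.13; limma, adjusted p = 0.443) and 0.03 (-0.06 to 0.12; adjusted p = 0.581). Tpm3 shares its name with processed copies (Tpm3-rs2, Tpm3-rs3 and Tpm3-rs7), and signal of near-identical copies cannot be told apart from its own.

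Tpm4 encodes a non-muscle tropomyosin. It was at 12.17, 12.37 and 12.35 after Cugbp1 siRNA, 12.41, 12.37 and 12.42 after Mbnl1 siRNA and 12.47, 12.39 and 12.45 in control cells. All 3 Cugbp1 siRNA arrays lay below all 3 controls, and the first of them lay furthest away. The difference of -0.14 after Cugbp1 siRNA did not pass (95% interval -0.27 to -0.02; limma, adjusted p = 0.0701), nor did that of -0.04 after Mbnl1 siRNA (-0.16 to 0.09; adjusted p = 0.640). Without Cugbp1 siRNA array 2 the difference after Cugbp1 siRNA passed (-0.19, adjusted p = 0.0443).

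**Figure D1:**
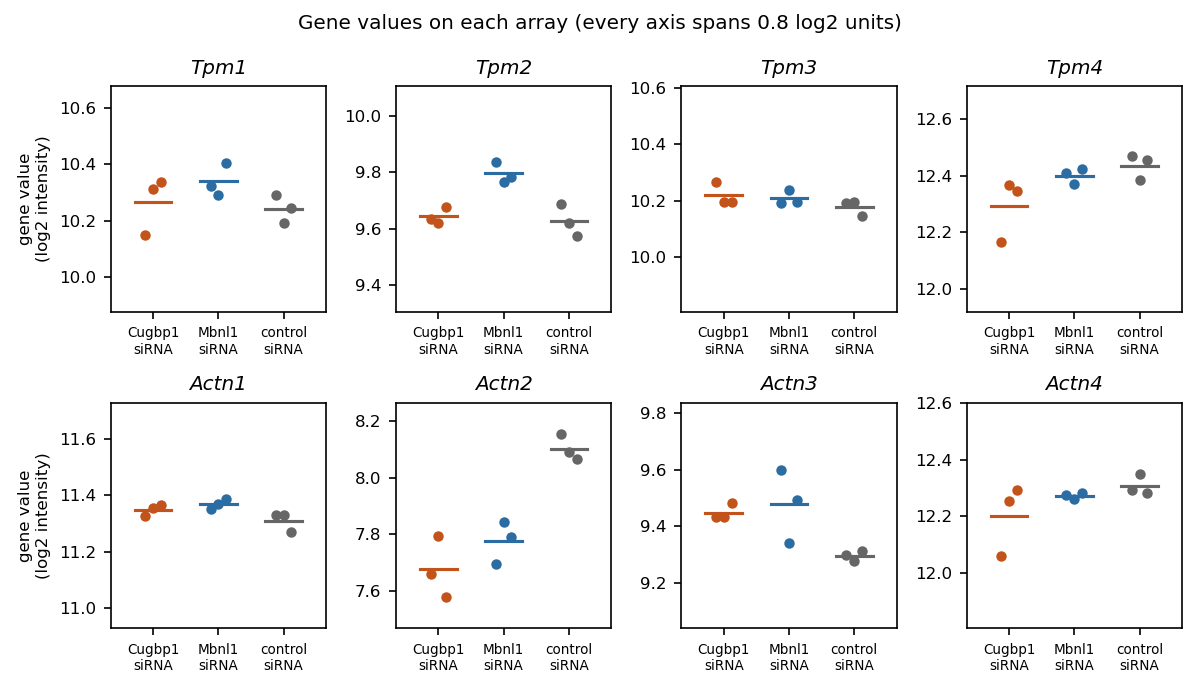
Gene values (log2 intensity, vertical axis) of the 8 members on each array, with points for arrays, a line for the mean of 3 and groups from left to right as Cugbp1 siRNA, Mbnl1 siRNA and control siRNA. Every panel spans the same log2 range. Actn2 shows its 6 siRNA arrays at 7.58 to 7.84, all below the control arrays at 8.07 to 8.15, while the 3 groups of Tpm3 overlap.

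Among the alpha-actinins, Actn2, which crosslinks thin filaments at the Z-disc of all striated muscle, fell after either siRNA. Its gene value was 7.66, 7.79 and 7.58 after Cugbp1 siRNA and 7.69, 7.84 and 7.79 after Mbnl1 siRNA, against 8.15, 8.09 and 8.07 in control cells. The 6 siRNA arrays all lay below the 3 controls, and the siRNA groups overlapped each other. Actn2 fell by 25.6% after Cugbp1 siRNA (95% interval -32.4% to -18.2%; log2 difference -0.43, SE 0.06; limma, adjusted p = 9.83e-04). It fell by 20.3% after Mbnl1 siRNA (-27.5% to -12.3%; log2 difference -0.33, SE 0.06; adjusted p = 0.00258). Cugbp1 siRNA minus Mbnl1 siRNA was -0.10 (-0.24 to 0.04; adjusted p = 0.370).

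The Actn2 value rests on 8 of 29 probe sets, since 21 were below the filter on weak signal. Of the 8 kept, 8 were lower after Cugbp1 siRNA and 7 after Mbnl1 siRNA. Of the 21 below the filter, 15 were lower and 6 higher after Cugbp1 siRNA, and 11 were lower and 10 higher after Mbnl1 siRNA. With all 29 probe sets in the gene value, Actn2 was -0.07 after Mbnl1 siRNA and no longer passed (limma, adjusted p = 0.218), and -0.18 after Cugbp1 siRNA (adjusted p = 0.0203). With a filter at the 50th percentile it was -0.20 after Mbnl1 siRNA (adjusted p = 0.0178). The falls of 25.6% and 20.3% thus rest on the 8 kept probe sets. Several markers of other cell types were lower too. Of all 12646 genes 3293 were called higher and 1600 lower after Cugbp1 siRNA, and 3397 higher and 1848 lower after Mbnl1 siRNA. Over the 4 blood cell markers the median change was -0.23 after Cugbp1 siRNA (0 rose and 2 fell) and -0.18 after Mbnl1 siRNA (1 rose and 2 fell). The blood cell marker that rose was Cd68, with a mean of 8.79 against 8.30 in control cells, and all its probe sets passed the filter. Over 3 epithelial markers the median change was -0.25 (3 fell) and -0.30 (2 fell). The only endothelial marker tested, Pecam1, fell after both. Of 4 smooth muscle markers 1 rose and 1 fell after Cugbp1 siRNA, and 0 rose and 1 fell after Mbnl1 siRNA (median change -0.07 and -0.04). Of 6 myoblast markers 3 rose after Cugbp1 siRNA and 1 fell after Mbnl1 siRNA, and of 5 markers of differentiated muscle 1 rose after Cugbp1 siRNA. The part of weak signal or of these markers in the result for Actn2 was not tested.

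Actn3, the alpha-actinin of fast muscle fibres, went the other way. It was at 9.43, 9.43 and 9.48 after Cugbp1 siRNA and 9.60, 9.34 and 9.49 after Mbnl1 siRNA, against 9.30, 9.28 and 9.31 in control cells. Every siRNA array lay above every control array, and separation from control was common over all genes in each comparison. The rise of 13.4% after Mbnl1 siRNA passed (95% interval 3.36% to 24.5%; log2 difference 0.18, SE 0.06; limma, adjusted p = 0.0346). The difference of 0.15 after Cugbp1 siRNA did not pass (95% interval 0.02 to 0.29; adjusted p = 0.0697, though under 0.05 without Cugbp1 siRNA array 1 or Mbnl1 siRNA array 1 or 2), and the siRNAs differed from each other by -0.03 (-0.16 to 0.10; adjusted p = 0.817). Of its 19 kept probe sets, 16 were higher after Cugbp1 siRNA and 18 after Mbnl1 siRNA. The call after Mbnl1 siRNA was lost without control array 1 (adjusted p = 0.0857 by limma), control array 2 (0.0509), Mbnl1 siRNA array 1 (0.0886) or Mbnl1 siRNA array 3 (0.0968), and also without the filter on weak signal (0.105) or with quantile normalisation repeated (0.0505).

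The non-muscle alpha-actinins passed the test in no comparison. Actn1, a component of stress fibres and focal adhesions, was at 11.33, 11.35 and 11.37 after Cugbp1 siRNA, 11.35, 11.37 and 11.39 after Mbnl1 siRNA and 11.33, 11.33 and 11.27 in control cells. Its differences from control were 0.04 (95% interval -0.05 to 0.13; limma, adjusted p = 0.453) and 0.06 (-0.03 to 0.15; adjusted p = 0.256). Actn4, its closest relative in non-muscle cells, was at 12.06, 12.25 and 12.29 after Cugbp1 siRNA, 12.28, 12.26 and 12.28 after Mbnl1 siRNA and 12.29, 12.35 and 12.28 in control cells. Its differences were -0.11 (-0.24 to 0.02; adjusted p = 0.167) and -0.04 (-0.17 to 0.10; adjusted p = 0.648). As for Tpm4, the lowest of the 9 values of Actn4 was that of the first Cugbp1 siRNA array. Actn4 overlaps Capn12 in RefSeq.

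**Figure D2:**
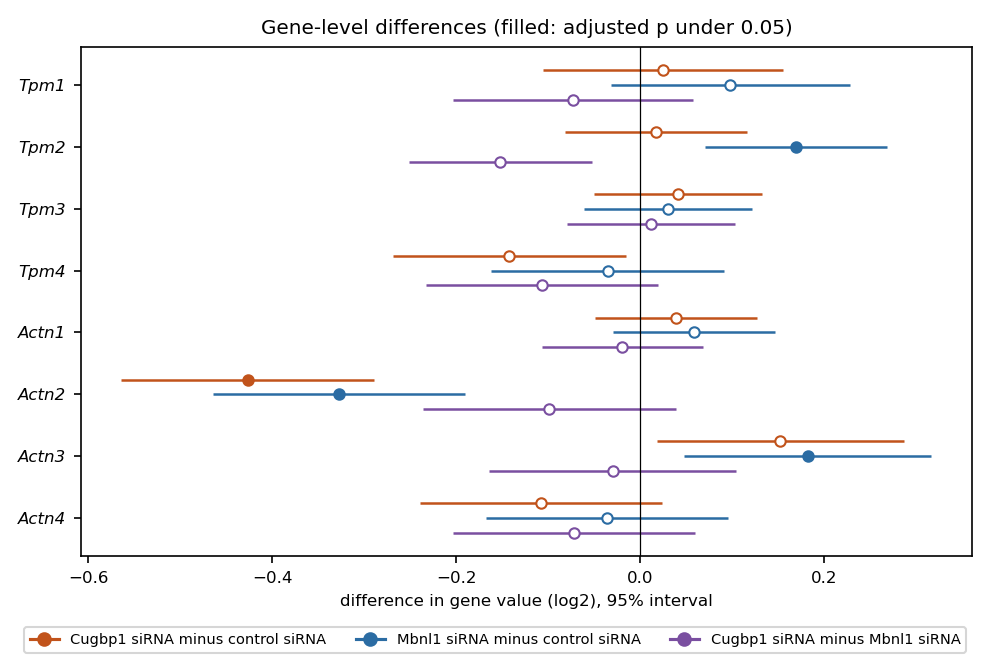
Differences in gene value (log2, horizontal axis) of the 8 members in the 3 comparisons, with 95% intervals as lines and filled points for adjusted p under 0.05. Actn2 lies at -0.43 and -0.33 against control, Tpm2 at 0.17 and Actn3 at 0.18 after Mbnl1 siRNA, and no point is filled for Cugbp1 siRNA minus Mbnl1 siRNA.

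A probe set that changes while its gene does not can mark an exon or a transcript end that is used more or less often. For this the value of each kept probe set was set against its gene value on the same array, and the change in that difference was tested. Of the 154 probe sets of the members, 5 were called after Cugbp1 siRNA (3.25%; 4 higher and 1 lower, in 4 genes), where 5.11% of all 158713 probe sets were (limma with Benjamini-Hochberg over all probe sets). After Mbnl1 siRNA 17 were called (11.0%; 13 higher and 4 lower, in 6 genes), where 9.54% of all probe sets were. Between the siRNAs 1 was called (0.649%), where 0.0769% of all probe sets were. Against control the members as a group were therefore near the background, and between the siRNAs their share rests on 1 call. The calls were unevenly spread: 9 of the 17 after Mbnl1 siRNA were in Tpm1. A call says that a probe set left its gene, not which exon it covers, because no positions of the probe sets were used. Over all probe sets, the arrays of the groups did not overlap for 23.6% after Cugbp1 siRNA, 29.8% after Mbnl1 siRNA and 13.8% between the siRNAs.

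**Figure D3:**
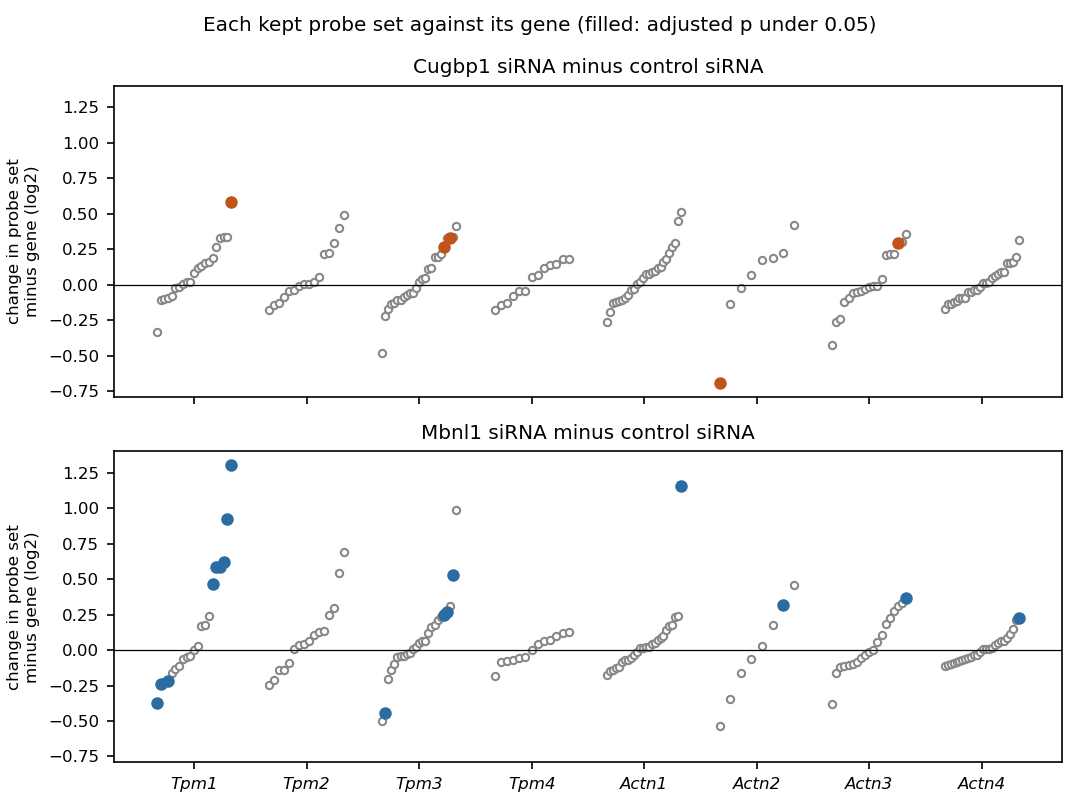
Change in probe set minus gene (log2, vertical axis) for each of the 154 kept probe sets, ordered by size within its gene, after Cugbp1 siRNA (top) and Mbnl1 siRNA (bottom), each against control. Filled points have an adjusted p under 0.05. They number 5 at the top and 17 at the bottom, where 9 are in Tpm1, and there are 0 in Tpm2 and Tpm4.

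After Mbnl1 siRNA, 9 of the 21 kept probe sets of Tpm1 departed from the gene (42.9%; 6 higher and 3 lower), and 1 of 21 did after Cugbp1 siRNA. A share this high or higher after Mbnl1 siRNA was found in 113 of 11374 genes, and in 7 of the 2393 genes with at least 20 tested probe sets, a minimum chosen after the share had been seen. The gene value of Tpm1 did not pass the test in the same comparison, so probe sets moved apart while the median polish of the whole did not pass. With the mean of the probe sets as gene value, the gene did pass after Mbnl1 siRNA (0.26; limma, adjusted p = 0.00216). Without Mbnl1 siRNA array 3 the count was 4 in place of 9, and without any other single array it was 7 to 9. The calls of probe sets 5417551, 5181322, 4745735 and 4964376 after Mbnl1 siRNA held in every alternative run. Without Mbnl1 siRNA array 3 the members' count after Mbnl1 siRNA was 7 in place of 17, and without Mbnl1 siRNA array 1 it was 11. After Cugbp1 siRNA the count of 5 was 1 without control array 3, 2 without Cugbp1 siRNA array 1 or array 2, and 3 without array 3.

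The largest change in Tpm1 was at probe set 5417551, which stood at -2.25, -1.49 and -2.20 relative to its gene after Cugbp1 siRNA and -0.87, -1.14 and -1.03 after Mbnl1 siRNA, against -1.94, -2.68 and -2.32 in control cells (log2). All Mbnl1 siRNA arrays lay above all others, and the Cugbp1 siRNA arrays overlapped the controls. The change after Mbnl1 siRNA was 1.30 (SE 0.20; limma, adjusted p = 0.00104), and under the alternatives run its adjusted p was at most 0.0130. Cugbp1 siRNA minus Mbnl1 siRNA was -0.97 and did not pass (adjusted p = 0.130), but passed without Cugbp1 siRNA array 2 (-1.22, adjusted p = 0.0210).

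Probe set 5181322 of Tpm1 rose after either siRNA. It stood between -1.51 and -0.97 after Cugbp1 siRNA and at -0.82, -0.88 and -0.76 after Mbnl1 siRNA, against -1.81, -1.70 and -1.74 in control cells. Every siRNA array was above every control array, with the second Cugbp1 siRNA array nearest to them. The changes were 0.59 after Cugbp1 siRNA (SE 0.13; limma, adjusted p = 0.0147) and 0.93 after Mbnl1 siRNA (SE 0.13; adjusted p = 5.03e-04), and their difference of -0.34 did not pass (adjusted p = 0.621). The call after Cugbp1 siRNA was lost without control array 3 (adjusted p = 0.0536), Cugbp1 siRNA array 1 (0.0605) or Cugbp1 siRNA array 3 (0.0759).

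Probe set 4745735 of Tpm1 was the only one among the members' 154 for which the siRNAs themselves differed past the threshold in this test. It stood at 0.07, -0.24 and -0.26 after Cugbp1 siRNA and at 0.45, 0.48 and 0.34 after Mbnl1 siRNA, against -0.25, 0.00 and -0.24 in control cells. The Cugbp1 siRNA and control arrays overlapped, and all 3 Mbnl1 siRNA arrays lay above both. Its change after Mbnl1 siRNA was 0.59 (SE 0.10; limma, adjusted p = 0.00182). That after Cugbp1 siRNA was 0.02 (adjusted p = 0.924), and Cugbp1 siRNA minus Mbnl1 siRNA was -0.57 (adjusted p = 0.0340). The last call was lost without control array 1 or 3, without Cugbp1 siRNA array 2 or 3 and without any of the Mbnl1 siRNA arrays (adjusted p 0.0554 to 0.272, with changes of -0.61 to -0.50), and without the filter (0.0698). With limma's diffSplice it was lost too (-0.52, adjusted p = 0.0900), and the member probe sets called between the siRNAs were different ones, Tpm1 5417551 (-0.94, adjusted p = 4.88e-06) and Actn1 5391766 (-0.67, adjusted p = 2.89e-04).

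The other called Tpm1 probe sets had changes of smaller or similar size. Probe set 4964376 stood at -0.50, -0.51 and -0.65 after Mbnl1 siRNA, against -1.20, -1.07 and -1.13 in control cells, a change of 0.58 (limma, adjusted p = 0.00695). Probe set 4554402 stood at -1.31, -1.33 and -1.05 after Mbnl1 siRNA, against -1.73, -2.04 and -1.79 in control cells, a change of 0.62 (adjusted p = 0.00981). Neither group pair overlapped. Probe set 4412573 moved the other way and stood at 1.69, 1.80 and 1.68 after Mbnl1 siRNA, against 1.91, 2.03 and 1.90 in control cells, a change of -0.22 (adjusted p = 0.0199). Its own level, not set against the gene, differed by only -0.12, so part of that change comes from the gene value it is compared with. Of the remaining 3 called after Mbnl1 siRNA, 1 was higher (0.46) and 2 were lower (-0.24 and -0.38), and these 3 were lost without Mbnl1 siRNA array 3 (adjusted p 0.0820 to 0.133), among other single arrays. Without that array 4554402 (0.51, adjusted p = 0.0751) and 4412573 (-0.22, adjusted p = 0.0702) were lost too.

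**Figure D4:**
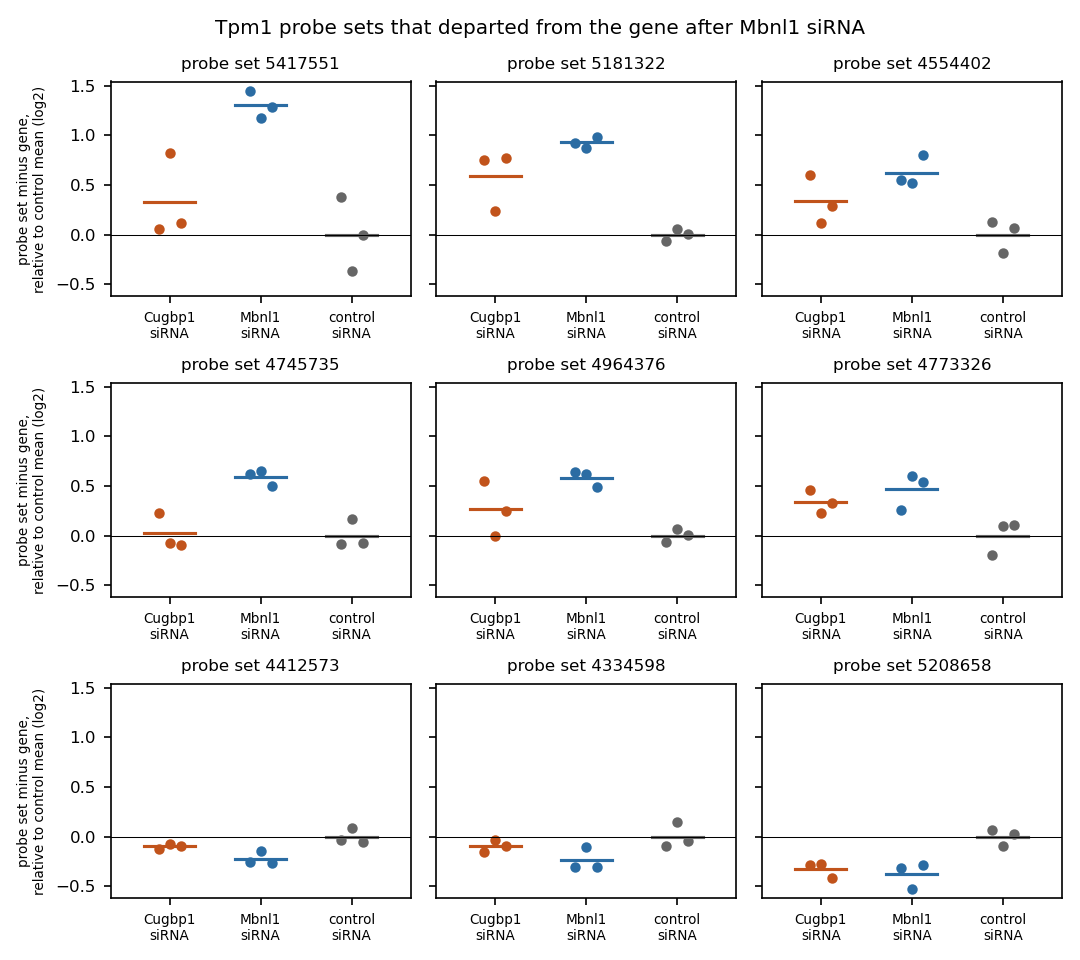
The 9 Tpm1 probe sets called after Mbnl1 siRNA, each as probe set minus gene on every array relative to the mean of the control arrays (log2, vertical axis), with points for arrays and lines for group means. The Mbnl1 siRNA arrays lie apart from the control arrays in all 9, which were picked by their calls in this same comparison. Over all probe sets, these groups lie apart for 29.8%. The mean difference is 1.30 for probe set 5417551 and 0.22 in the other direction for 4412573. The mean of the Cugbp1 siRNA arrays lies between the other means in all 9.

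In Tpm3, probe sets 4853770 and 5418665 rose against their gene after either siRNA. Probe set 4853770 stood at 2.00, 1.90 and 1.96 after Cugbp1 siRNA and 1.91, 1.92 and 1.85 after Mbnl1 siRNA, against 1.59, 1.75 and 1.54 in control cells, with changes of 0.33 (limma, adjusted p = 0.00567) and 0.27 (adjusted p = 0.0109). Probe set 5418665 stood at 1.94, 2.07 and 1.92 after Cugbp1 siRNA and 1.90, 2.06 and 1.92 after Mbnl1 siRNA, against 1.68, 1.84 and 1.62 in control cells, with changes of 0.27 (adjusted p = 0.0314) and 0.25 (adjusted p = 0.0298). Neither overlapped its controls. Probe set 4388829 was called after Mbnl1 siRNA, where it stood at -1.35, -1.43 and -1.43, against -2.06, -1.90 and -1.83 in control cells, a change of 0.53 (adjusted p = 0.0124). Probe set 5572582 stood at -0.77, -0.62 and -0.75 after Mbnl1 siRNA against -0.17, -0.23 and -0.42 in control cells, a change of -0.44 (adjusted p = 0.00565). Both probe sets were separate from their controls, and neither difference between the siRNAs passed. The call of 5572582 held in every alternative run. That of 4388829 was lost without Mbnl1 siRNA array 1 (adjusted p = 0.0578) or 3 (0.0504), and that of 4853770 after Mbnl1 siRNA without control array 3 (0.0630). Probe set 5418665 was lost after Cugbp1 siRNA without control array 1 or 3, Cugbp1 siRNA array 1 or 2, or Mbnl1 siRNA array 3 (adjusted p 0.0534 to 0.154), and after Mbnl1 siRNA without control array 1 or 3 or any Mbnl1 siRNA array (0.0520 to 0.137). With diffSplice 4853770 and 5418665 were called after neither siRNA (adjusted p 0.230 to 0.511).

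Tpm2 and Tpm4 had 0 called probe sets of 16 and 13 by limma in each of the 3 comparisons. At an unadjusted p under 0.05, Tpm2 had 2 after Cugbp1 siRNA and 3 after Mbnl1 siRNA, and Tpm4 had 2 and 1. Of all 158713 probe sets, 34508 were under that value after Cugbp1 siRNA and 40871 after Mbnl1 siRNA. The Tpm2 probe set with the largest difference, 5173306, stood at -2.40, -2.24 and -1.40 after Mbnl1 siRNA against -2.24, -3.56 and -2.30 in control cells, and the groups overlapped. That of Tpm4, 4404622, stood at -4.73, -4.46 and -4.04 after Cugbp1 siRNA and -4.56, -4.54 and -4.91 after Mbnl1 siRNA against -4.69, -4.11 and -4.98 in control cells, and again the groups overlapped. No probe set was thus called as standing apart from the rise of Tpm2 after Mbnl1 siRNA.

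The alpha-actinin genes had 2 called probe sets after Cugbp1 siRNA and 4 after Mbnl1 siRNA, all single ones in their gene. The probe sets tested numbered 26 in Actn1, 8 in Actn2, 19 in Actn3 and 26 in Actn4. Of all probe sets, 5.11% and 9.54% were called in these comparisons, and the calls below are described singly. In Actn1, probe set 5391766 stood at -3.64, -3.04 and -2.60 after Mbnl1 siRNA, against -3.72, -4.52 and -4.50 in control cells, a change of 1.15 (SE 0.24; limma, adjusted p = 0.00833). Its mean log2 level of 7.65 lies near the filter, an intensity of 128, and the lowest Mbnl1 siRNA array was just above the highest control. Without Mbnl1 siRNA array 3, the highest, the call was lost (0.91, adjusted p = 0.0566).

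In Actn2, probe set 5098239 stood at -0.17, -0.59 and -0.51 after Cugbp1 siRNA against 0.20, 0.38 and 0.23 in control cells, a change of -0.69 (SE 0.16; adjusted p = 0.0245 by limma). It thus fell further than its falling gene. After Mbnl1 siRNA it stood at -0.27, 0.03 and -0.55, and its change of -0.53 did not pass (adjusted p = 0.0532). Probe set 5374052 rose against the gene by 0.32 after Mbnl1 siRNA (adjusted p = 0.0361) while its own level differed by -0.01, so the change comes from the gene value. On its own it stood at 10.44, 10.50 and 10.65 after Mbnl1 siRNA against 10.48, 10.41 and 10.73 in control cells, and the groups overlapped. The call of 5098239 after Cugbp1 siRNA was lost without control array 2 or 3 or Cugbp1 siRNA array 2 or 3 (adjusted p 0.0512 to 0.0945), and that of 5374052 without control array 1 or 2, Cugbp1 siRNA array 2 or Mbnl1 siRNA array 1 or 3 (0.0525 to 0.167). Without the filter on weak signal the change of 5374052 was 0.07 (adjusted p = 0.732), at the 50th percentile 0.19 (0.164) and with diffSplice 0.38 (0.123).

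In Actn3, probe set 4415753 stood at 1.45, 1.51 and 1.63 after Mbnl1 siRNA against 1.11, 1.18 and 1.19 in control cells, a change of 0.37 (SE 0.07; limma, adjusted p = 0.00515). Probe set 5349854 stood at 2.62, 2.60 and 2.47 after Cugbp1 siRNA against 2.36, 2.11 and 2.33 in control cells, a change of 0.30 (SE 0.07; adjusted p = 0.0251). Each lay above all its controls. In the other comparison with control they missed the threshold, at adjusted p = 0.0979 for 4415753 after Cugbp1 siRNA and 0.114 for 5349854 after Mbnl1 siRNA. In Actn4, probe set 4986777 stood at -0.69, -0.66 and -0.55 after Mbnl1 siRNA against -0.83, -0.96 and -0.79 in control cells, a change of 0.22 (adjusted p = 0.0434). The call of 4415753 held without any single array. That of 5349854 was lost without any of 7 single arrays, all but control array 1 and Cugbp1 siRNA array 3 (adjusted p 0.0543 to 0.149). That of 4986777 was lost without control array 2 or 3, Cugbp1 siRNA array 3 or any Mbnl1 siRNA array (0.0514 to 0.174). With diffSplice 4415753 (0.0709), 5349854 (0.173) and 4986777 (0.174) were all lost, and without the filter 5349854 (0.0733) and 4986777 (0.0699).

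Of 32 listed genes whose proteins build or bind the thin filament beside tropomyosin, 26 were tested. After Cugbp1 siRNA 3 rose and 5 fell, where 38.7% of all genes were called, with a median change of 0.00 where the median of all genes was 0.05. After Mbnl1 siRNA 5 rose and 4 fell, where 41.5% of all genes were called, with a median of -0.02 where that of all genes was 0.04. Both counts are below the share of all genes, and the genes are described singly. Neb, the giant ruler protein of the thin filament, rose by 0.41 after Cugbp1 siRNA (limma, adjusted p = 0.00478) and 0.45 after Mbnl1 siRNA (adjusted p = 0.00231). Tnnt2, the cardiac and embryonic troponin T that anchors troponin to tropomyosin, rose by 0.19 (adjusted p = 0.0199) and 0.35 (adjusted p = 9.69e-04), and Tmod3, which caps pointed filament ends together with tropomyosin, by 0.21 (adjusted p = 0.00349) and 0.29 (adjusted p = 6.09e-04). After Mbnl1 siRNA the actin- and tropomyosin-binding Cald1 also rose by 0.28 (adjusted p = 0.00279), as did the myofibril assembly gene Nrap by 0.27 (adjusted p = 0.0131). Tnnt2 was lost after Cugbp1 siRNA without control array 2 or 3, Cugbp1 siRNA array 3 or Mbnl1 siRNA array 2 (adjusted p 0.0571 to 0.0733), and without the filter on weak signal (0.0630). With arrays centred on the named probe sets kept it was 0.09 after Cugbp1 siRNA (adjusted p = 0.262), and Nrap was 0.14 after Mbnl1 siRNA (adjusted p = 0.0538), so neither call held. Under that centring Tnnt2 after Mbnl1 siRNA (0.22), Cald1 (0.16) and Tmod3 (0.12 after Cugbp1 siRNA and 0.16 after Mbnl1 siRNA) were smaller but still called, and the counts were 2 rising and 12 falling after Cugbp1 siRNA and 4 rising and 11 falling after Mbnl1 siRNA. Neb, Tmod3, Cald1 and Cnn2 held each of the calls given here for them in every alternative run.

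The thin filament genes that fell included the actin-binding calponin genes Cnn1 and Cnn2. Cnn1 was -0.26 after Cugbp1 siRNA (limma, adjusted p = 0.0392) and -0.33 after Mbnl1 siRNA (adjusted p = 0.0126), and Cnn2 was -0.30 (adjusted p = 9.56e-04) and -0.30 (adjusted p = 7.17e-04). Lmod2, a nucleator of actin filaments in muscle, fell by 0.38 after Cugbp1 siRNA (limma, adjusted p = 0.00659) and by 0.26 after Mbnl1 siRNA (adjusted p = 0.0285). Tagln, an actin-binding protein of smooth muscle, fell by 0.31 after Cugbp1 siRNA (adjusted p = 0.00171). Tagln was the only gene of the 26 tested for which the siRNAs differed past the threshold, where 9.34% of all genes did. Its value for Cugbp1 siRNA minus Mbnl1 siRNA was -0.22 (limma, adjusted p = 0.0275). That call was lost without control array 3, Cugbp1 siRNA array 2 or Mbnl1 siRNA array 1 or 3 (adjusted p 0.0597 to 0.101). Cnn1 was lost after Cugbp1 siRNA without control array 2 or 3, Cugbp1 siRNA array 2 or 3 or Mbnl1 siRNA array 3 (0.0574 to 0.115). Without the filter on weak signal, calls were lost for Lmod2 after Cugbp1 siRNA (-0.12, adjusted p = 0.409) and for Tagln between the siRNAs (-0.21, 0.155). Those for Cnn1 after Cugbp1 siRNA (-0.15, 0.287) and Mbnl1 siRNA (-0.27, 0.0706) were lost there too. The fall of Lmod2 after Mbnl1 siRNA was not run under the alternatives. The fast troponin I gene Tnni2 was -0.36 (adjusted p = 0.00501) and -0.33 (adjusted p = 0.00590), but this rests on 3 kept probe sets and was 0.02 in both comparisons when all its probe sets were used.

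Of 32 listed genes whose proteins bind or sit beside alpha-actinin, 25 were tested. After Cugbp1 siRNA 5 rose and 2 fell, where 38.7% of all genes were called (median change 0.02, against 0.05 for all genes). After Mbnl1 siRNA 6 rose and 1 fell, where 41.5% of all genes were called (median 0.07, against 0.04 for all genes). Both counts are below the share of all genes. With arrays centred on the named probe sets kept, 2 rose and 8 fell after Cugbp1 siRNA and 1 rose and 5 fell after Mbnl1 siRNA, so the balance of rises and falls in these counts depends on the scaling. The changes against control given here for single genes of this list kept their direction in every alternative run. Palld, an actin-bundling partner of alpha-actinin in stress fibres and Z-discs, rose by 0.33 (limma, adjusted p = 0.00143) and 0.38 (adjusted p = 5.25e-04), and kept both calls in every alternative run. The barbed-end capping gene Capza2 rose by 0.14 after each siRNA (adjusted p = 0.0484 after Cugbp1 siRNA and 0.0412 after Mbnl1 siRNA), and the other capping genes Capzb and Capza1 rose by 0.19 (adjusted p = 0.0119) and 0.18 (adjusted p = 0.0209) after Cugbp1 siRNA. Under that centring the capping genes did not pass (0.03 to 0.08), and Capza2 was also lost without most single arrays (adjusted p up to 0.150), and Capza1 without control array 1 or Cugbp1 siRNA array 2 or 3 (0.0699 to 0.0828).

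Between the siRNAs 2 of the 25 alpha-actinin partners were called, where 9.34% of all genes were. Synpo2, a Z-disc and actin-bundling protein, rose by 0.35 after Cugbp1 siRNA (limma, adjusted p = 7.29e-04), and Cugbp1 siRNA minus Mbnl1 siRNA was 0.23 (adjusted p = 0.0146). Pdlim3, whose protein binds ACTN2 through its PDZ domain, rose by 0.30 after Mbnl1 siRNA (adjusted p = 0.00924), and Cugbp1 siRNA minus Mbnl1 siRNA was -0.36 (adjusted p = 0.0134). Titin, Ttn, which is anchored to alpha-actinin in the Z-disc, rose by 0.31 after Mbnl1 siRNA (adjusted p = 0.0241), and Csrp2 rose by 0.25 (adjusted p = 0.00181) and Pdlim7 by 0.16 (adjusted p = 0.0441). These 4 calls after Mbnl1 siRNA did not hold under that centring (0.04 to 0.20). The falls were Csrp1 (-0.21, adjusted p = 0.00416) and the Z-disc protein Ldb3 (-0.17, adjusted p = 0.0222) after Cugbp1 siRNA, and talin, Tln1 (-0.17, adjusted p = 0.0119), after Mbnl1 siRNA. The difference between the siRNAs for Synpo2 was 0.07 without the filter on weak signal (adjusted p = 0.474) and 0.07 at the 50th percentile (0.607). The differences were also lost without Cugbp1 siRNA array 1 or 3 or Mbnl1 siRNA array 2 or 3 for Synpo2 (adjusted p 0.0571 to 0.0848) and without Mbnl1 siRNA array 1 or 3 for Pdlim3 (0.0557 to 0.0586). Against control, single arrays ended the calls of Ttn (controls 1 and 2, Mbnl1 siRNA arrays 1 and 3; up to 0.105), Pdlim7 (controls 1 to 3, Cugbp1 siRNA array 2, Mbnl1 siRNA arrays 2 and 3; up to 0.117), Pdlim3 (Mbnl1 siRNA array 1; 0.0513) and Ldb3 (controls 2 and 3, Cugbp1 siRNA arrays 2 and 3; up to 0.0792). Without the filter Ldb3 was -0.10 (adjusted p = 0.181), and Pdlim7 (0.0568) and Ttn (0.0513) were lost. Under the centring the falls of Ldb3 (-0.28) and Tln1 (-0.30) were larger.

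**Figure D5:**
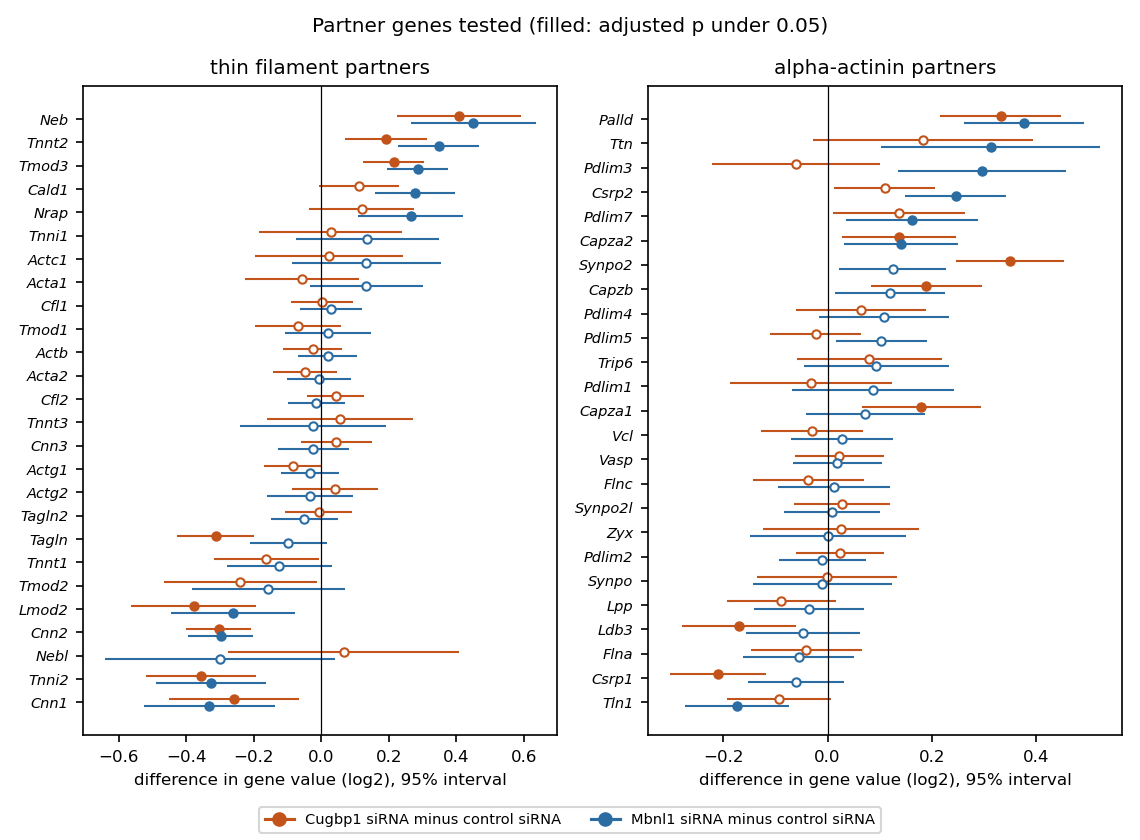
Differences in gene value (log2, horizontal axis) with 95% intervals for the 26 tested thin filament genes (left) and the 25 tested alpha-actinin partners (right), after Cugbp1 siRNA and after Mbnl1 siRNA, each minus control and ordered by the second. Filled points have an adjusted p under 0.05, and they run from Neb at 0.45 to Lmod2 at -0.38, the last of which was -0.12 and not called without the filter on weak signal. The arrays are scaled as deposited.

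Over the 9 arrays, the gene whose values were most like those of each member was Cdk1 for Tpm1 (Pearson r 0.973), Maf1 for Tpm2 (0.962), Slc66a2 for Tpm3 (0.947), 3300005D01Rik for Tpm4 (0.973), Usp16 for Actn1 (0.964), Vldlr for Actn2 (0.978), Thap4 for Actn3 (0.976) and Tubb4b for Actn4 (0.973). These are the highest of 12645 correlations each, over arrays that fall into 3 groups, and they are descriptions. The likeness of Actn1 and Usp16 depended on the scaling and was -0.318 with arrays centred on the named probe sets kept. That of Tpm3 and Slc66a2 was 0.249 with gene values as means. Tpm4 with 3300005D01Rik and Actn4 with Tubb4b stayed at 0.893 or above in the alternatives run. The runners-up for Tpm2 were Sh3glb1 (0.956) and Ypel3 (0.956), and those for Actn2 were Crocc2 (0.977) and Rasl10a (0.974). Without the filter on weak signal, Actn2 had an r of 0.597 with Vldlr, 0.755 with Crocc2 and 0.339 with Rasl10a. Among the members themselves, Tpm4 and Actn4 moved most alike (0.851), with the first Cugbp1 siRNA array low for both, and Tpm3 and Tpm4 most oppositely (-0.822). Actn2 and Actn3, the pair of muscle alpha-actinins, had an r of -0.819 over the same arrays.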

How the data were processed

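The authors deposited probe set intensities on a linear scale for 9 Affymetrix mouse exon arrays, made with RMA in the program Affymetrix Expression Console, per the submitters' processing notes, which also name build mm9. RMA corrects background, normalises between arrays and combines the probes of a set. The version of that program is not given in the sources used here. Per the labels' protocols, 100 ng of total RNA was labelled per array. Here the deposited intensities were put on the log2 scale with no further normalisation. Array data have no sequencing depth.

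Probe sets were named from the platform annotation where it gave exactly 1 symbol (316997 probe sets; 6571 had several and 871987 were not listed). Of 22264 symbols, 4213 were updated through a RefSeq table (GRCm38.p6) and 63 could not be matched. A probe set passed the filter when its 9-array mean reached the 75th percentile (intensity 128). A gene needed at least 3 of them, and its value was their Tukey median polish. Group means over all 9 arrays were estimated by limma (version 3.58.1, R version 4.3.3), with 3 contrasts and Benjamini-Hochberg adjustment over 12646 genes. The difference of a probe set from its gene value was fitted likewise, with a mean-variance trend, for genes with at least 4 kept probe sets, and a call is an adjusted p under 0.05. These steps were tested on simulated data.

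The members and gene lists were chosen with earlier results of these data known. Named were all members, up to 6 called probe sets per gene by smallest p (the largest difference where none was called), up to 8 called partners per list and contrast by size, and the 3 most correlated genes per member. Lmod2 after Mbnl1 siRNA is given in addition. Alternatives were filters, scaling, gene summary, the replicate number as a block, fewer arrays, diffSplice and leaving out each array. No coordinates of probe sets were used.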

Additional observations from a re-analysis of the deposited data

Results flagged for a closer look

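Probe set 4745735 of Tpm1 differed between the siRNAs by the test of that difference itself: relative to its gene, Cugbp1 siRNA minus Mbnl1 siRNA was -0.57 on the log2 scale (SE 0.10; limma, adjusted p = 0.0340). All 3 Cugbp1 siRNA arrays lay below all 3 Mbnl1 siRNA arrays, and 122 of 158713 probe sets passed in this comparison. The call was lost in 9 of 19 alternative runs (limma, adjusted p up to 0.272), among them those without the filter and with diffSplice. No sample was tested for standing apart, since each group has 3.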

How the results depend on the processing

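Alternatives were run for 21 counts, 100 single tests and 24 correlations. Of 399 counts 82 moved by over 1.5 times, and of 1900 tests 198 lost and 17 gained their call. Where no cause is shown by the setting itself, the cause was not tested. Leaving out single arrays, the counts after Cugbp1 siRNA were 1 to 2 member genes, 1 to 7 member probe sets, 0 to 2 in Tpm1 and 3289 to 9597 in all. After Mbnl1 siRNA they were 4 to 9 alpha-actinin partners, 7 to 23 member probe sets, 4 to 9 in Tpm1 and 5506 to 16834 in all. Between the siRNAs they were 632 to 1155 genes, 0 to 1 thin filament genes, 0 to 2 alpha-actinin partners, 0 to 1 member probe sets, 0 to 1 in Tpm1 and 44 to 143 in all.

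After Cugbp1 siRNA, 2 member genes were called with quantile normalisation repeated, arrays centred on their median, gene values as means or a mean-variance trend for genes, and 3 with arrays centred on the named probe sets kept, which gave 14 thin filament genes. With gene values as means 9 member probe sets and 3 of Tpm1 were called, with diffSplice 8 and 2, and with only the 6 arrays compared 3 member probe sets, 4 alpha-actinin partners and 3264 probe sets in all. After Mbnl1 siRNA 1 member gene was called without the filter, 27 member probe sets with gene values as means and 15 thin filament genes with the centring on kept probe sets. Between the siRNAs, no filter gave 639 genes, 0 thin filament genes, 1 alpha-actinin partner, 0 member probe sets and 0 in Tpm1. The filter at the 50th percentile gave 0 and 1 of the partner lists, gene values as means and only 6 arrays gave 0 thin filament genes, diffSplice gave 2 member probe sets and 554 in all, and the trend gave 1 member gene, 2 thin filament genes and 5 alpha-actinin partners.

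Directions turned mainly for differences that were not called. With the centring on kept probe sets these were Tpm1 (-0.045), Tpm2 (-0.075), Tpm3 (-0.046) and Actn1 (-0.039) after Cugbp1 siRNA, Tpm1 (-0.0039), Tpm3 (-0.071) and Actn1 (-0.032) after Mbnl1 siRNA, and the correlations of Actn1 with Usp16 (-0.318) and Armc10 (-0.258). The called gene Tnni2 turned without the filter (0.025 after Cugbp1 siRNA and 0.020 after Mbnl1 siRNA) and at the 50th percentile after Mbnl1 siRNA (0.0013). Tpm2 turned after Cugbp1 siRNA with quantile normalisation (-0.0032), and Tpm3 between the siRNAs with gene values as means (-0.026). Leaving out single arrays gave -0.0025 to 0.119 for Tpm1 after Cugbp1 siRNA and, between the siRNAs, -0.0073 to 0.036 for Tpm3, -0.090 to 0.023 for Actn3, -0.055 to 0.099 for Tpm1 probe set 5208658, -0.021 to 0.058 for Tpm3 probe set 5418665 and -0.397 to 0.118 for Tpm2 probe set 5173306.

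Same-numbered arrays deviated together weakly at most (correlations -0.10 to 0.12, 1 of 9 over 0.1), against -0.13 to 0.09 for arrays with different numbers. The highest correlation was thus of a same-numbered pair, and 5 of 9 arrays correlated best with their own number. With the replicate block, 1, 3 and 0 member genes, 5, 17 and 1 member probe sets and 8 Tpm1 probe sets after Mbnl1 siRNA were called, and 4539, 4982 and 875 genes in all.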
